A study of Mus musculus with 36 samples.

Results

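The transcripts described here are 8 genes of the podocyte, the epithelial cell that wraps the glomerular capillaries of the kidney: Nphs1, Podxl, Synpo, Wt1, Ptpro, Cd2ap, Magi2 and Plce1. They were chosen by name as genes of the slit diaphragm and of podocyte identity, and all 8 were among the 15,730 genes of the count table. Podocytes carry interdigitating foot processes that are bridged by the slit diaphragm, a cell junction that forms the last layer of the glomerular filter. Nephrin, the protein of Nphs1, spans that junction and is held to the actin cytoskeleton by adaptor proteins, and loss of podocytes or of their proteins is a known feature of diabetic kidney disease. The question of the comparisons was how the levels of these genes differed between diabetic and nondiabetic kidneys and between kidneys given a lipoxin or vehicle.

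Total RNA of kidney cortex was sequenced from male ApoE−/− mice of C57BL/6 background, so that controls and diabetic animals alike lacked functional apolipoprotein E. Diabetes was produced with streptozotocin, a toxin of the pancreatic beta cell, injected into the peritoneum on 5 days at 55 mg/kg from an age of 6 weeks. Both diabetic and nondiabetic mice were given 0.1% ethanol as vehicle, lipoxin A4 (LXA4, a lipid mediator of the resolution of inflammation) at 5 µg/kg, or its synthetic analog benzo-LXA4 at 1.7 µg/kg, by the same route 2 times a week. Follow-up lasted 16 weeks, with treatment from week 10 to week 16. This gives 6 groups of 6 libraries: nondiabetic vehicle, nondiabetic LXA4, nondiabetic benzo-LXA4, diabetic vehicle, diabetic LXA4 and diabetic benzo-LXA4. Streptozotocin diabetes models a loss of insulin. The cortex sample mixes podocytes with all other cortical cells, and the cells behind each transcript were not resolved. Fewer podocytes, less RNA per podocyte and RNA of these genes from other cells therefore cannot be told apart. Nothing in the labels says that replicates are separate mice, and the p-values measure only the spread between these samples.

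Library totals ran from 8,896,193 to 43,305,005 counts. Apoe, the disrupted gene, stood at 1.62 to 3.42 CPM (read counts scaled to library size) over all 36 libraries, and no library of an intact strain was there to compare it with. A pair of libraries stood apart: Gm26917 and Gm23935, which hold ribosomal and small structural RNA sequence, took 51.9% of the counts of diabetic LXA4 replicate 6 and 15.3% of those of nondiabetic vehicle replicate 3, against at most 6.04% in the other 34. The proximal tubule markers summed to between 13,492 and 30,252 CPM per library, as belongs to cortex, and none of the markers of any cell type examined was at 0 in a whole group.

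Coordinates are those of GENCODE M21 on GRCm38. The slit diaphragm gene Nphs1 (ENSMUSG00000006649) lies on the plus strand of chromosome 7 from 30458315 to 30487223. Its binding partner Cd2ap (ENSMUSG00000061665) lies on the minus strand of chromosome 17 from 42792951 to 42876665, and the scaffold gene Magi2 (ENSMUSG00000040003) on the plus strand of chromosome 5 from 19227036 to 20704792. The genes of surface proteins are both on chromosome 6: Podxl (ENSMUSG00000025608) on the minus strand from 31519488 to 31563981 and Ptpro (ENSMUSG00000030223) on the plus strand from 137252319 to 137463233. Plce1 (ENSMUSG00000024998) lies on the plus strand of chromosome 19 from 38481109 to 38785030, and Wt1 (ENSMUSG00000016458) on the plus strand of chromosome 2 from 105126529 to 105173616, and the eighth gene is Synpo (ENSMUSG00000043079). Nphs1 and Plce1 each overlap a gene on the opposite strand (Nphs1os and Gm28991), whose reads cannot be told apart from theirs because the strand setting of the counting is not given in the sources used here.

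RefSeq promoters, taken here as the 250 bases upstream of the annotated start, were found for 5 of the 8 genes (Nphs1, Cd2ap, Magi2, Ptpro and Plce1), with 2 start sites for Magi2. No promoter entry was matched for Podxl, Synpo and Wt1. Ptpro and Magi2 are shown because the windows of Nphs1, Cd2ap and Plce1 lay largely within exons of the same genes. The windows, on GRCm38.p6, are chr6:137252049-137252298 (plus strand) for Ptpro, and chr5:19226796-19227045 and chr5:19907268-19907517 (plus strand) for the first and the second start site of Magi2, written 5′ to 3′ with motif matches in capitals.
Ptpro: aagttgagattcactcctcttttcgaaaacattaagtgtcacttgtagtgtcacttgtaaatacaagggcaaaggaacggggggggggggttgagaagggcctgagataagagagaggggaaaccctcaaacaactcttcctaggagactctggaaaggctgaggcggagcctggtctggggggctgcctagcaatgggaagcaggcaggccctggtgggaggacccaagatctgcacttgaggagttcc
Magi2, first start site: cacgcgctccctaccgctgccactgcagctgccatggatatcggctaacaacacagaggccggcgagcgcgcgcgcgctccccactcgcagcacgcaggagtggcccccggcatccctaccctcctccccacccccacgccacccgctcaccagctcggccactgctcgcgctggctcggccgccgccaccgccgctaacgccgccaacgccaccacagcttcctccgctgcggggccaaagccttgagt
Magi2, second start site: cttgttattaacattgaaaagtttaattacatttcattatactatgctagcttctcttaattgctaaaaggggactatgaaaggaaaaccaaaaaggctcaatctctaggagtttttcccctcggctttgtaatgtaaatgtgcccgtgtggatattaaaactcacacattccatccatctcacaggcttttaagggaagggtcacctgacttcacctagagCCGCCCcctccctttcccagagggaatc
The motifs searched on both strands were GCGNGGGCG (an element bound by the zinc fingers of WT1), GGGCGG (the core GC box, which can overlap the first motif), CCAAT and TATAAA. The only match in these 3 windows was a GGGCGG on the minus strand, read as CCGCCC, 28 to 23 bases upstream of the second Magi2 start. Over all 32,851 promoters of the table, 4.70% held GCGNGGGCG, 32.7% GGGCGG, 33.8% CCAAT and 12.4% TATAAA. Among the 14,599 promoters of genes in the expression fit the shares were 8.27%, 53.9%, 34.5% and 6.87%. The windows of Nphs1, Cd2ap and Plce1 held none of the 4 motifs. An exon of the same gene covered 250, 241 and 250 bases of them, so they are not upstream of every annotated start. What lies upstream of the other starts of these genes was not searched. The first Magi2 window overlapped an exon of its gene by 10 bases. GC content was 53.6% for Ptpro and 72.0% and 41.2% for the Magi2 windows, against a median of 52.4% over all promoters and 59.2% over those of genes in the fit.

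The 8 genes covered a wide span of levels in whole cortex. Per kilobase of exon, Magi2, a scaffold with PDZ domains that binds nephrin, was the highest at 63.9 ± 7.94 CPM per kb (SD, n = 36) and ranked 435 of 15,693 genes. Podxl, which encodes the charged surface sialomucin podocalyxin, followed at 23.7 ± 2.99 CPM per kb, and Cd2ap, the adaptor between nephrin and actin, at 9.07 ± 1.13. Synpo (the actin-associated synaptopodin) and Ptpro (a receptor tyrosine phosphatase of the apical foot process membrane) lay close together at 5.40 ± 0.829 and 5.30 ± 1.21 CPM per kb. Wt1 (the zinc finger transcription factor of podocyte identity) and Nphs1 were lower at 2.68 ± 0.493 and 2.58 ± 0.643, and Plce1 (phospholipase C epsilon, whose loss causes nephrotic syndrome) was the lowest at 1.53 ± 0.265. The steps between Synpo and Ptpro and between Wt1 and Nphs1 were within their spreads.

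All CPM values below are scaled with TMM library factors, and log2 changes come from the edgeR quasi-likelihood fit. The nephrin gene Nphs1 is described first. Its lowest, median and highest CPM were 11.7, 13.6 and 19.9 in nondiabetic vehicle, 11.7, 13.7 and 17.9 in nondiabetic LXA4, and 11.8, 14.7 and 22.3 in nondiabetic benzo-LXA4. In the diabetic groups they were 14.7, 16.7 and 22.1 under vehicle, 13.7, 19.7 and 29.3 under LXA4, and 17.5, 19.8 and 24.2 under benzo-LXA4. All 18 diabetic libraries lay above the nondiabetic median of 13.6 CPM, 3 of them above the highest nondiabetic library, and 9 nondiabetic libraries lay below the lowest diabetic one. The highest nondiabetic values were those of benzo-LXA4 replicate 1 and of vehicle replicate 3, the latter rich in structural RNA, and the highest diabetic value, 29.3 CPM, was that of LXA4 replicate 6, which is rich in it too. In order of group means, the step from diabetic vehicle (17.3 ± 2.67, SD, n = 6) to diabetic benzo-LXA4 (20.2 ± 2.52) was the only 1 of the 40 steps between neighbouring group means of the 8 genes that exceeded the larger of the pair's SDs.

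The transcripts of the other slit diaphragm genes behaved less uniformly. Cd2ap ranged from 114 to 168 CPM in nondiabetic libraries (median 135, n = 18) and from 129 to 213 CPM in diabetic ones (median 147, n = 18), and 17 of the 18 diabetic values exceeded the nondiabetic median. Its highest value, 213 CPM, came from diabetic LXA4 replicate 5, while the other 5 libraries of that group lay between 136 and 149 CPM. Magi2 ranged from 401 to 888 CPM in nondiabetic and from 498 to 854 CPM in diabetic libraries, with medians of 731 and 737 CPM, so the states overlapped almost completely. Its lowest value in each state, 401 and 498 CPM, was in the library rich in structural RNA.

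Among the genes of surface proteins, Ptpro ranged from 18.5 to 40.0 CPM in nondiabetic libraries (median 33.2) and from 9.92 to 49.9 CPM in diabetic ones (median 41.6). Of the 18 diabetic libraries, 10 lay above every nondiabetic library, the most of any of the 8 genes, yet the lowest of all 36 was diabetic too. Without the pair rich in structural RNA, the range over the remaining 34 libraries was 25.6 to 49.9 CPM. Podxl ranged from 110 to 154 CPM in nondiabetic (median 123) and from 106 to 181 CPM in diabetic libraries (median 133), and 14 of the 18 diabetic libraries lay above the nondiabetic median.

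For the actin-associated Synpo, nondiabetic libraries held 41.3 to 67.8 CPM (median 45.6) and diabetic libraries 40.5 to 78.7 CPM (median 53.4). The states overlapped over nearly the whole range, although 17 of 18 diabetic libraries lay above the nondiabetic median, and diabetic LXA4 replicate 2 stood alone at the top. The transcription factor gene Wt1 had 11.0 to 19.7 CPM in nondiabetic (median 15.1) and 7.79 to 23.1 CPM in diabetic libraries (median 18.1), with 16 of 18 diabetic libraries above the nondiabetic median. Both minima of Wt1 were again in the libraries rich in structural RNA.

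Plce1, the signalling enzyme, showed a separation of groups in 1 treatment arm. Its lowest, median and highest CPM were 16.2, 19.8 and 21.9 in nondiabetic LXA4 and 22.9, 29.0 and 30.0 in diabetic LXA4, so these groups did not overlap. Under vehicle they were 18.9, 21.4 and 27.8 in nondiabetic and 19.4, 27.2 and 32.9 in diabetic libraries, and under benzo-LXA4 19.8, 23.4 and 29.7 in nondiabetic and 22.7, 26.1 and 30.4 in diabetic libraries. Those arms overlapped.

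**Figure D1:**
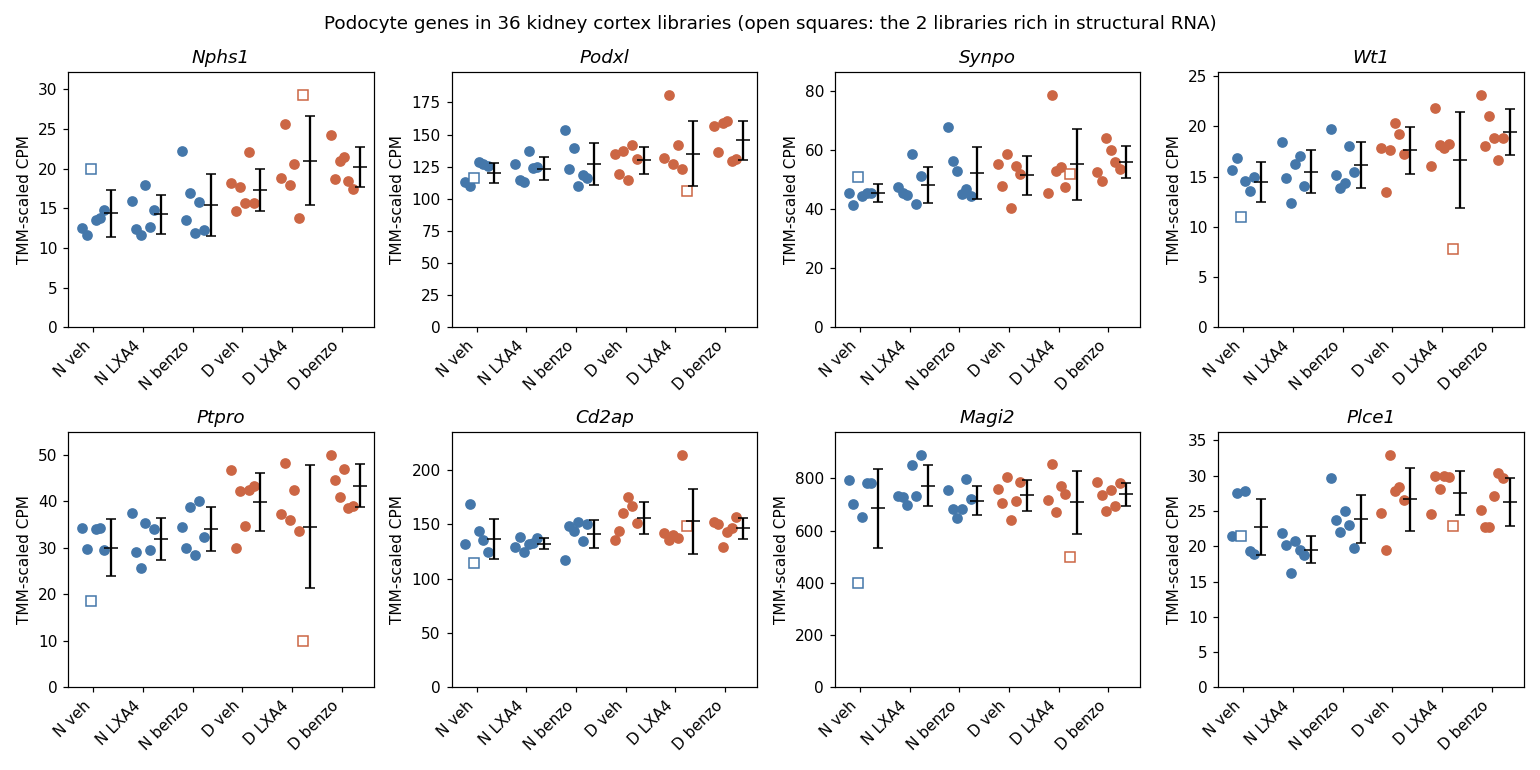
TMM-scaled CPM (y axis, linear from 0) of the 8 genes in the 6 groups (x axis; N nondiabetic, D diabetic, benzo for benzo-LXA4), with 1 point per library in the order of replicates 1 to 6 and, beside them, the mean and SD of the group (n = 6). Open squares are the libraries rich in structural RNA, which lie at the bottom for Ptpro (18.5 and 9.92 CPM) and Magi2 (401 and 498 CPM) and near the top of their groups for Nphs1 (19.9 and 29.3 CPM).

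Between diabetic and nondiabetic mice given vehicle, none of the 8 genes passed the threshold of an adjusted p under 0.05 (edgeR, Benjamini-Hochberg over 15,726 genes), a comparison in which 5.6% of all genes did. All 8 estimates were above 0, from 0.10 for Magi2 to 0.40 for Ptpro on the log2 scale, with a median of 0.21 against −0.01 for all genes. Ptpro had 39.9 ± 6.26 CPM in diabetic and 30.1 ± 6.09 CPM in nondiabetic vehicle libraries (SD, n = 6 each), a log2 change of 0.40 with a 95% interval of 0.03 to 0.78 and an adjusted p of 0.201. It was the only 1 of the 8 with an unadjusted p under 0.05, at 0.0366. For Nphs1 the change was 0.29 (interval −0.03 to 0.61, adjusted p = 0.298), with all 6 diabetic libraries above the nondiabetic mean. DESeq2 called 0 of the 8 and limma voom with quality weights called 2, Ptpro (0.34, adjusted p = 0.0491) and Plce1 (0.34, adjusted p = 0.0395). The 5.6% is the share of all genes with edgeR, and the shares with the other methods are not given here. Without the pair of libraries rich in structural RNA, none passed and Magi2 moved from 0.10 to −0.01.

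Averaged over the 3 treatments, with 18 libraries in each state, 6 of the 8 genes were higher in diabetic kidneys when libraries were scaled by all genes. In this comparison 18.8% of all genes were called higher and 16.6% lower. Nphs1 rose the most, from 14.7 ± 3.00 to 19.5 ± 3.97 CPM (SD, n = 18 each), a log2 change of 0.40 with an SE of 0.09 and an adjusted p of 0.000878 (edgeR) in a shift that 17 of the 18 diabetic libraries showed relative to the nondiabetic mean. Plce1 rose from 22.0 ± 3.55 to 26.8 ± 3.51 CPM, by 0.29 ± 0.07 (SE) on the log2 scale (adjusted p = 0.000983). Ptpro rose by 0.30 ± 0.11 (adjusted p = 0.0274) and Wt1 by 0.23 ± 0.08 (adjusted p = 0.0251), each with 16 of the 18 diabetic libraries above the mean of the nondiabetic ones. Cd2ap and Podxl rose by the same 0.15 on the log2 scale, a fold of 1.11 for each (adjusted p = 0.0289 and 0.0331). Synpo had an estimate of 0.16 that missed the threshold (adjusted p = 0.0574), and Magi2 one of 0.01 with an interval of −0.13 to 0.15. Synpo passed with DESeq2 (0.16, adjusted p = 0.0449) and limma voom with quality weights (0.18, adjusted p = 0.00791). With edgeR it also passed with upper quartile factors (adjusted p = 0.0244) and a minimum mean of 5 CPM (adjusted p = 0.0198). With DESeq2 size factors, no filter, the replicate block or the podocyte scales it did not pass.

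Several of these calls changed when 1 library was left out, and the estimates behind the lost calls still lay between 0.11 and 0.27. Without nondiabetic LXA4 replicate 3, in which 7 of the 8 genes had the lowest value of their group, 2 of the 8 genes passed, Nphs1 and Plce1, and the estimates of Ptpro, Wt1, Cd2ap and Podxl became 0.27, 0.20, 0.13 and 0.13 (adjusted p = 0.0546, 0.0583, 0.0665 and 0.0769). Without nondiabetic vehicle replicate 3, 3 of the 8 passed, and Wt1 (0.0503), Podxl (0.0622) and Cd2ap (0.0695) did not. Podxl also lost its call without nondiabetic benzo-LXA4 replicate 4 (0.0506), diabetic LXA4 replicate 2 (0.0644) or diabetic benzo-LXA4 replicate 4 (0.0531), and Cd2ap without diabetic LXA4 replicate 5 (0.0588). Synpo passed without nondiabetic LXA4 replicate 4 (0.0308), nondiabetic benzo-LXA4 replicate 1 (0.0186), diabetic vehicle replicate 4 (0.0234), diabetic LXA4 replicates 1 (0.0356), 5 (0.0472) or 6 (0.0372), or diabetic benzo-LXA4 replicate 2 (0.0454). Nphs1 and Plce1 passed in all 36 fits that each left out 1 library. Without both libraries rich in structural RNA 7 of the 8 passed, Magi2 being the exception at −0.00. For fits with libraries left out, the share of all genes called is not given here.

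When each library was scaled instead to the summed counts of 15 other podocyte genes, 1 of the 8 passed, Nphs1, at 0.37 on the log2 scale (adjusted p = 0.00606). Shares of all genes called on the podocyte scales are not given here. Estimates that lost the call stayed close to their values under scaling by all genes for Ptpro (0.30, adjusted p = 0.151), Plce1 (0.27, adjusted p = 0.0588) and Wt1 (0.21, adjusted p = 0.223). That sum varied widely in diabetic LXA4, from 1,207 to 3,132 CPM with a median of 1,508. Col4a3 and Col4a4, collagen genes of the glomerular basement membrane, supplied 68.4% of that sum. With the other 13 genes alone as the scale, an alternative chosen after seeing the data, the median of all genes moved to −0.15. On that scale Nphs1 was at 0.25 (adjusted p = 0.00352) and again the only 1 called, Plce1 was at 0.14, and Podxl (−0.01), Synpo (−0.00), Cd2ap (−0.01) and Magi2 (−0.15) were below 0.

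Within the LXA4 arm, 2 of the 8 genes (25%) were called, both higher in diabetic than in nondiabetic kidneys. Of all genes 27.7% were called there in either direction, and 15.4% were called higher. Nphs1 rose from 14.2 ± 2.43 to 21.0 ± 5.60 CPM (SD, n = 6 each), by 0.54 ± 0.16 (SE) on the log2 scale (edgeR adjusted p = 0.0122), with 5 of 6 diabetic libraries above the nondiabetic mean. Plce1 rose from 19.5 ± 1.95 to 27.6 ± 3.08 CPM, by 0.51 ± 0.12 (edgeR adjusted p = 0.00204), with no overlap (share over all genes not counted). Both calls held in each of the 12 fits that left out 1 library of these groups, and with the 13-gene podocyte scale, but not with the 15-gene one, where the estimates were 0.47 and 0.48 (adjusted p = 0.075 and 0.0824). The other 6 genes ranged from −0.12 for Magi2 to 0.21 for Cd2ap and did not pass. Without diabetic LXA4 replicate 5 Cd2ap was at 0.083, and without replicate 6 of that group Magi2 was at −0.033. With 1 library left out, the lowest estimates of Podxl, Synpo, Wt1 and Ptpro were 0.03, 0.06, 0.05 and 0.03. Ptpro was at 0.15 (adjusted p = 0.581), and in the 34 libraries it was at 0.30 and passed (adjusted p = 0.0337).

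Within the benzo-LXA4 arm none of the 8 passed with edgeR, where 4.06% of all genes did. All 8 estimates were above 0, from 0.05 for Magi2 to 0.39 for Nphs1 (interval 0.07 to 0.71, adjusted p = 0.176), and 2 had an unadjusted p under 0.05, Nphs1 and Podxl. Nphs1, Podxl, Wt1 and Ptpro each had all 6 diabetic libraries above the nondiabetic mean. DESeq2 called 0 of the 8, and limma voom with quality weights called those 4. The 4.06% is the share of all genes with edgeR, and the shares with the other methods are not given here. Without the libraries rich in structural RNA, Ptpro passed at 0.34 (adjusted p = 0.0351). The benzo-LXA4 groups hold neither of those libraries, which enter that fit through the shared scaling and estimate of the spread.

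**Figure D2:**
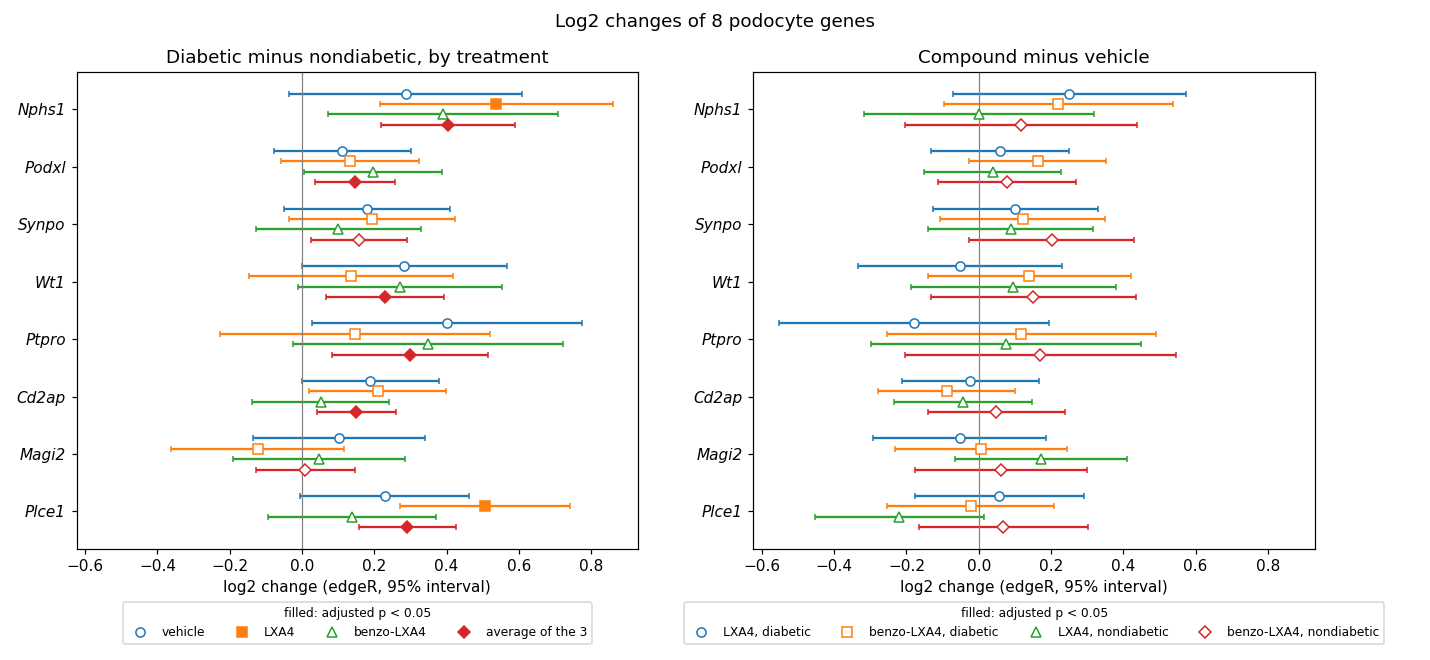
Log2 changes of the 8 genes with 95% intervals from the edgeR fit (x axis), diabetic minus nondiabetic under each treatment and averaged (left panel) and each compound minus vehicle in each state (right panel). Filled symbols have an adjusted p under 0.05. Filled symbols occur in the left panel only, for 6 genes in the average and for Nphs1 and Plce1 under LXA4.

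Neither compound moved any of the 8 genes past the threshold. LXA4 was given at 5 µg/kg and benzo-LXA4, the analog with a fused benzene ring, at 1.7 µg/kg, so their values stand side by side and were not compared. In diabetic kidneys LXA4 gave log2 differences from vehicle between −0.18 for Ptpro and 0.25 for Nphs1 (interval −0.07 to 0.57, adjusted p = 0.436), where 0.356% of all genes were called. The group means of Nphs1 behind this were 21.0 ± 5.60 CPM with LXA4 and 17.3 ± 2.67 CPM with vehicle, with 5 of 6 treated libraries above the vehicle mean. Ptpro had 34.6 ± 13.2 CPM with LXA4 and 39.9 ± 6.26 CPM with vehicle, and its estimate of −0.18 became −0.02 without the libraries rich in structural RNA. The estimate for Nphs1 became 0.15 without them, and with single libraries left out it ranged from 0.15 (without diabetic LXA4 replicate 6) to 0.36 (without diabetic LXA4 replicate 5).

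Benzo-LXA4 in diabetic kidneys gave differences between −0.09 for Cd2ap and 0.22 for Nphs1, where 0% of all genes were called. Nphs1 had 20.2 ± 2.52 CPM with benzo-LXA4, and all 6 treated libraries lay above the vehicle mean. Podxl had 145 ± 15.1 CPM with benzo-LXA4 and 130 ± 10.6 CPM with vehicle (0.16, interval −0.03 to 0.35), and 5 of 6 treated libraries lay above the vehicle mean. Unadjusted p-values under 0.05 were found for 0 of the 8 genes under either compound, against 2,468 of all genes under LXA4 and 891 under benzo-LXA4. DESeq2 and limma voom called 0 of the 8 in both comparisons.

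In nondiabetic kidneys the 8 differences ran from −0.22 for Plce1 to 0.17 for Magi2 with LXA4 and from 0.05 for Cd2ap to 0.20 for Synpo with benzo-LXA4. With edgeR 0% of all genes were called in either comparison, at 967 and 452 genes with an unadjusted p under 0.05. Plce1 had 19.5 ± 1.95 CPM with LXA4 and 22.7 ± 3.96 CPM with vehicle, and all 6 treated libraries lay below the vehicle mean (interval of the log2 difference −0.45 to 0.01, adjusted p = 0.839). The test of whether the LXA4 difference itself differed between diabetic and nondiabetic mice called 0.248% of all genes and 0 of the 8. Its estimates ran from −0.25 for Ptpro (interval −0.78 to 0.27) and −0.23 for Magi2 to 0.25 for Nphs1 (interval −0.20 to 0.70) and 0.28 for Plce1 (interval −0.05 to 0.61, adjusted p = 0.389). The change with diabetes was not shown to differ between the LXA4 and vehicle arms for any of the 8. For benzo-LXA4 this test called 0% of all genes (673 with an unadjusted p under 0.05), and the 8 estimates ran from −0.14 to 0.10.

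Other podocyte genes were read from 5 lists, with 96 of 99 genes tested. Averaged over treatments, 23 were higher and 9 lower in diabetes, which is 33.3% called against 35.4% of all genes, with a median of 0.09. Only some of the called genes are named below, and most of those named were higher. Of the slit diaphragm and junction genes, 5 of 19 were higher and 1 lower. The calcium channel gene Trpc6, mutated in familial nephrotic disease, had 2.04 CPM in diabetic and 1.21 CPM in nondiabetic libraries (0.78 ± 0.15, SE, on the log2 scale), and the nephrin relative Kirrel (Neph1) had 33.0 and 27.6 CPM (0.26 ± 0.06). The giant cadherin gene Fat1 rose by 0.34 ± 0.06.

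Of the podocyte cytoskeleton genes, 4 of 25 were higher and 1 lower. Anln, which encodes the actin-binding anillin, had 3.79 CPM in diabetic and 1.49 CPM in nondiabetic libraries (1.33 ± 0.15, SE), the largest change of the 96. The formin gene Inf2 rose by 0.50 ± 0.14, and cofilin (Cfl1) fell by 0.24. Among transcription factors 2 of 12 were higher and 1 lower: Lmx1b rose by 0.26 ± 0.08, from 4.01 to 4.87 CPM. Of the basement membrane and adhesion genes, 4 of 18 were higher and 3 lower, with laminin alpha 5 (Lama5) at 0.41 ± 0.04, higher in 18 of 18 diabetic libraries than the nondiabetic mean.

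Of the podocyte signal and surface genes, 8 of 22 were higher and 3 lower. Vegfa, the podocyte growth factor for endothelium that tubules make too, fell by 0.27, from 181 to 150 CPM, while Cdkn1c, a cell cycle inhibitor of mature podocytes, rose by 0.64 ± 0.22, and the crumbs gene Crb2 by 0.42 ± 0.15. In the vehicle arm 8 of the 96 genes were higher and 3 lower, in the LXA4 arm 25 and 5, and in the benzo-LXA4 arm 2 and 0. These are 11.5%, 31.3% and 2.08% of the 96, against 5.6%, 27.7% and 4.06% of all genes. The compounds called 0 of the 96 in either state. In the test of the LXA4 difference between states 1 passed, Lama5 (0.46, adjusted p = 0.0481).

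Some markers of other cortical cells moved in the same averaged comparison, in which 18.8% of all genes were higher and 16.6% lower. For mesangial, proximal tubule and macrophage markers, genes called in the other direction are not counted here. Mesangial markers were higher for 7 of 12 genes (Serpine2 0.83, Myh11 0.81, Thy1 0.91 on the log2 scale), and their sum ranged from 229 to 332 CPM in nondiabetic and from 252 to 347 CPM in diabetic libraries. Proximal tubule markers were lower for 8 of 12 genes (Miox fell by 0.72, Lrp2 by 0.42), and their sum ranged from 19,219 to 30,252 CPM in nondiabetic and from 13,492 to 24,005 CPM in diabetic libraries. Macrophage markers were higher for 5 of 7 genes, with sums of 73.3 to 109 and 80.4 to 148 CPM. Parietal epithelial markers were higher for 2 of 9, Cldn1 (0.65) and Ncam1 (0.46), with sums of 356 to 573 and 291 to 704 CPM. Glomerular endothelial markers were higher for 1 of 15 and lower for 1, with sums of 630 to 784 and 633 to 795 CPM. The sum of distal tubule and collecting duct markers overlapped widely, at 3,544 to 6,698 CPM in nondiabetic and 3,409 to 6,227 CPM in diabetic libraries. CPM are shares of a library, and the part of these shifts between cell types in the differences of the 8 genes was not tested.

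Some pairs of the 8 genes varied together between libraries of the same group. Deviations of log2 CPM from the group mean were correlated for all 28 pairs over 36 libraries, with permutation p-values adjusted over the 28. Of these, 12 passed an adjusted p of 0.05, 10 positive and 2 negative, with a median r of 0.24 over the 28, and over 34 libraries without that pair 17 passed, 14 positive and 3 negative. The libraries share the scaling of each column, so the pairs are not independent of one another. Nphs1 and Podxl had r = 0.51 over 36 libraries (permutation, adjusted p = 0.00423, Spearman rho 0.66 with adjusted p = 0.00042, r = 0.70 without the 2 farthest Nphs1 values) and r = 0.88 over 34 (permutation p = 1e-05, the smallest the permutations can give). Nphs1 and Ptpro had r = −0.14 (permutation, adjusted p = 0.5) over 36 and 0.71 (permutation, adjusted p = 0.00014) over 34. Podxl and Synpo had r = 0.75 and 0.82.

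Ptpro and Magi2, whose promoters are printed above, had r = 0.75 over 36 libraries (permutation, adjusted p = 0.00042, Spearman rho 0.62) and 0.53 over 34 (permutation, adjusted p = 0.00552, rho 0.53). Wt1 and Ptpro went from 0.84 to 0.49, so the large value rested in part on the pair left out, and Wt1 and Magi2 from 0.61 to 0.25, which no longer passed (adjusted p = 0.202). Cd2ap ran against Nphs1, with r = −0.55 over 36 libraries (permutation, adjusted p = 0.00219) and −0.53 over 34, and against Synpo, with −0.50 and −0.48. With Plce1 its r was 0.29 over 36 and 0.28 over 34, with Magi2 0.12 and −0.20, and neither pair passed. Diabetic LXA4 replicate 2 had the highest value of its group for 6 of the 8 genes and the lowest for 1, Cd2ap, and nondiabetic benzo-LXA4 replicate 1 had the highest for 5 and the lowest for 1, again Cd2ap (117 CPM).

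**Figure D3:**
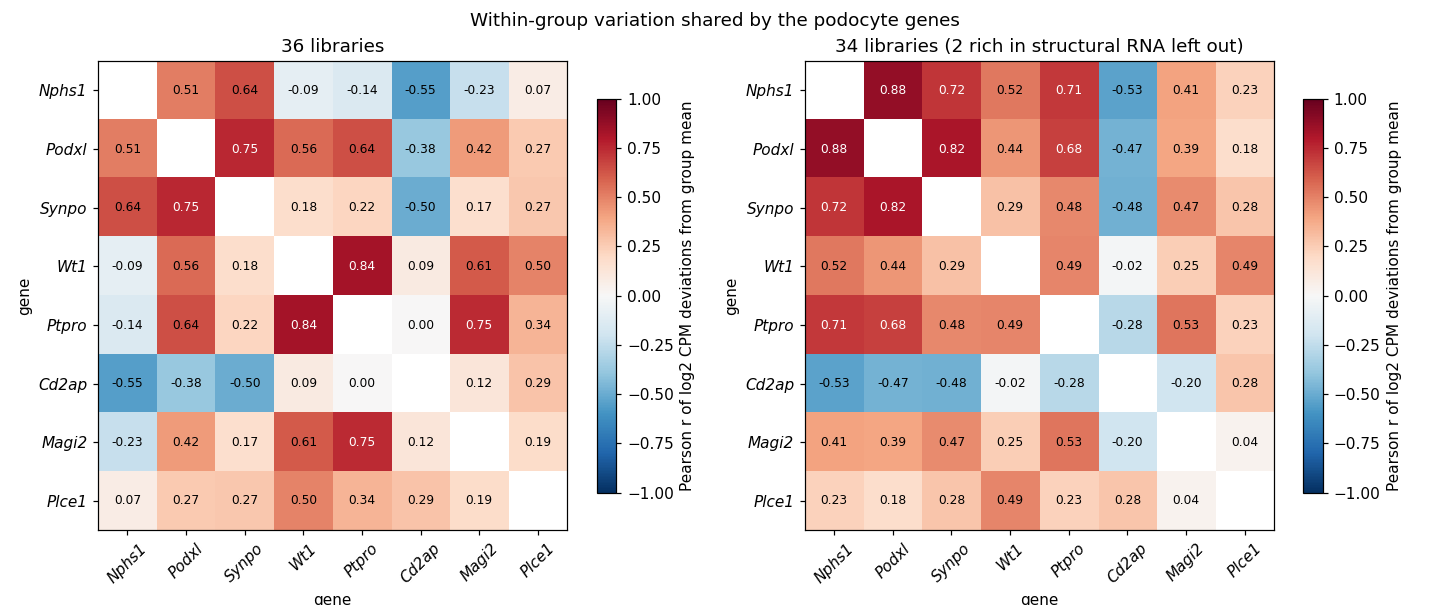
Pearson r between the log2 CPM deviations of each pair of genes from their group means, over all 36 libraries (left) and over the 34 without the libraries rich in structural RNA (right), from −1 (blue) to 1 (red). Nphs1 with Podxl goes from 0.51 to 0.88 and with Ptpro from −0.14 to 0.71, while the row of Cd2ap stays below 0 with Nphs1, Podxl and Synpo in both.

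Across all libraries, the genes whose deviations most resembled the mean deviation of the 8 were ranked by Pearson r among 14,014 genes with a mean of at least 1 CPM. Sema3e, a secreted semaphorin, was first both over 36 libraries (r = 0.85) and over 34 (r = 0.84). The next over 36 were Sdk1 (0.83), Syt9 (0.82), Tmem117 (0.81), Antxr1 (0.80), Nebl (0.79), Sik3 (0.77), Iqgap2 (0.77), Pag1 (0.77) and Foxd2os (0.77). Over 34 libraries 3 of these 10 were again among the first 10, and Crb2 and Nes, the latter the intermediate filament gene of podocytes, ranked 3 and 5 with r = 0.80 and 0.73 against −0.14 and −0.24 over 36. The 92 ranked genes of the podocyte lists had a median r of 0.24 over 36 libraries and 0.11 over 34, against 0.05 and −0.00 for all genes.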

How the data were processed

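The deposited table holds raw counts per gene, made by the authors from 200 ng of ribosomal RNA-depleted total RNA with a directional kit, per the labels' protocols. Per the submitters' processing notes, bcl2fastq 2.17.1.14, STAR and featureCounts were used with GRCm38 (STAR and featureCounts options: not given in the sources used here). All 36 columns were matched to labels (0 left over). Genes and lists were chosen with earlier results of these data known.

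All libraries entered 1 quasi-likelihood fit of edgeR 4.0.16 (R 4.3.3) over 6 groups with TMM factors. The low-count filter kept 15,726 genes, including all 8 podocyte genes. Adjusted p-values are Benjamini-Hochberg over all genes, threshold 0.05, and intervals are 95%. The procedure was tested on simulated data. Precision follows depth: the 8 genes had from 33 counts (Wt1 in the shallowest library) to 31,938 (Magi2) per library.

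Correlations between the 8 genes used deviations of log2 CPM from group means, without an offset, and 100,000 permutations. For the ranking of similar genes 0.01 CPM was added to the ranked genes before the log, and no permutations were made. Levels per kb are TMM-scaled CPM over exon length, in place of a planned sum per kb, of which Gm23935 alone took up to 89.4% in 1 library. Named genes were the 8, some of the list genes past the threshold (at most 10 a podocyte list and 3 a list of other cells), and the 10 most similar genes. Not every list gene past the threshold is named, and most named podocyte list genes were higher in diabetes. Alternatives were DESeq2 1.42.0, its size factors, upper quartile factors, limma 3.58.1 voom with quality weights, other filters, only the groups compared, a replicate block, podocyte scaling sets, and leaving out libraries. The replicate numbers did not pair samples.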

Additional observations from a re-analysis of the deposited data

Results flagged for a closer look

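Each of the 8 genes was examined in each of the 6 groups for a library set apart from the other 5 (its gap to the nearest one, over the range of the group, above Dixon's 95% value of 0.625 for 6 samples). Of 48 such sets, 5 had one, and chance gives about 1 in 20. Nondiabetic vehicle replicate 3 accounted for 3 of the 5: Nphs1 at 19.9 CPM was above the others (11.7 to 14.7), while Ptpro at 18.5 CPM (others 29.5 to 34.3) and Magi2 at 401 CPM (others 650 to 793) were below them. This is the library in which 15.3% of counts fell on Gm26917 and Gm23935, and their part in these values was not tested. Synpo stood at 78.7 CPM in diabetic LXA4 replicate 2 (others 45.6 to 54.3). Cd2ap stood at 213 CPM in diabetic LXA4 replicate 5 (others 136 to 149).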

How the results depend on the processing

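Over the 8 genes and 6 comparisons (diabetes under each treatment and averaged, and each compound in diabetic mice), the log2 values under the alternatives other than leaving out 1 library kept direction and call in 467 cases. The podocyte scales, which shift all genes of a library alike, gave 21 of the 27 sign changes and all 10 lost calls, and the other alternatives gave 6 sign changes and 16 gained calls. Counts of genes past the threshold moved as follows, and the cause was not tested. The shares of all genes called under these alternatives are not given beside them. Limma voom with quality weights called 2 under vehicle and 4 under benzo-LXA4 (edgeR 0 and 0). Under benzo-LXA4, 1 passed without the pair rich in structural RNA and 1 when only the groups compared were fitted. The 15-gene podocyte scale called 0 under LXA4 and 1 in the average, and the 13-gene scale, chosen after seeing the data, 1 in the average. Leaving out 1 library gave 2 to 7 genes in the average (2 without nondiabetic LXA4 replicate 3, 3 without nondiabetic vehicle replicate 3) and changed no count in the other comparisons.

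Without the pair rich in structural RNA, Magi2 became −0.0088 under vehicle and −0.0045 in the average, and the LXA4 difference in diabetic mice became 0.056 for Wt1 and 0.023 for Magi2. With the 15-gene scale Magi2 was −0.0089 in the average and −0.034 for benzo-LXA4 in diabetic mice, and the LXA4 difference there was −0.091 for Podxl, −0.067 for Synpo and −0.084 for Plce1. With the 13-gene scale, values below 0 were Podxl −0.064 and Magi2 −0.071 under vehicle, Podxl −0.035, Wt1 −0.015 and Ptpro −0.0038 under LXA4, Synpo −0.022, Cd2ap −0.094 and Magi2 −0.088 under benzo-LXA4, and Podxl −0.012, Synpo −0.0010, Cd2ap −0.0084 and Magi2 −0.15 in the average. On that scale the LXA4 difference in diabetic mice was −0.042 for Podxl, −0.0042 for Synpo and −0.035 for Plce1, and that of benzo-LXA4 −0.071 for Magi2. With voom, Wt1 was 0.022 for LXA4 and Magi2 −0.017 for benzo-LXA4 in diabetic mice.

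Leaving out single libraries, Magi2 ranged from −0.016 to 0.15 under vehicle and from −0.040 to 0.041 in the average. For LXA4 in diabetic mice the ranges were −0.040 to 0.11 for Podxl, −0.028 to 0.15 for Synpo, −0.14 to 0.057 for Wt1, −0.14 to 0.010 for Cd2ap, −0.11 to 0.025 for Magi2 and −0.018 to 0.13 for Plce1. For benzo-LXA4 they were −0.025 to 0.041 for Magi2 and −0.10 to 0.052 for Plce1. In nondiabetic mice and in the tests of a difference between states, 37 of 352 such values (40 of 576 with 1 library left out) changed sign, all from main values within 0.15 of 0, and the lowest adjusted p was 0.292.

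With the replicate number as a block, 6 genes passed in the average, 2 under LXA4 and 0 in each other comparison, and no call changed (Nphs1 0.41, adjusted p = 0.00141 in the average). Of 90 pairs of libraries with the same number in different groups, 28 had deviations correlated above 0.1, and 3 of 36 libraries correlated best with their own number. The group means moved by less than 1 SD with DESeq2 size factors, and these left 12 of 28 gene pairs past the threshold. The lowest count of any of the 8 genes was 33, for Wt1 in the shallowest library. Summed over all 36 libraries, Nphs1 had the fewest counts, 16,575, against 16,848 for Wt1.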
